A study of Homo sapiens with 6 samples.

Results

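The genes described here encode serine/threonine protein phosphatases with their regulatory subunits, and the kinases of the MAP kinase cascade. A gene was a member when its GENCODE release 44 type was protein-coding and its symbol began with PPP and a digit, with MAPK and a digit, or with MAP2K, MAP3K or MAP4K. This gave 40 PPP genes and 22 MAPK genes, together 62 of the 7469 protein-coding genes and of the 7684 genes of any type with a listed edit in at least 1 of 6 libraries. MAP2K3 and MAP2K7 were not among the genes listed. MAPK1IP1L met the rule by its symbol and is not a kinase. The families are described apart.

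The libraries came from a human embryonic kidney line, written HEK293XT in the labels and HEK293T in the paper, fixed with methanol. In RBFOX2-INSCRIBE, a rabbit antibody against RBFOX2, an RNA-binding protein, was bound in the fixed cells, and a purified fusion of the cytidine deaminase APOBEC1 with an antibody-binding nanobody (Apo1-Nb) then turned nearby C into U. Enzyme-only cells received Apo1-Nb without the antibody, and buffer-only cells received neither. Each group had 2 long-read libraries, and "with the antibody" below stands for the RBFOX2-INSCRIBE libraries. The enzyme-only libraries are named replicate 2 and replicate 3 as in their titles, and nothing in the labels says that replicates were separate cultures, so the p-values measure only the spread between libraries, which may be technical. All groups share the line and the fixation. The files list edits and no expression values, so the markers of the line could not be checked.

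PP1, PP2A, PP4, PP5, PP6 and calcineurin remove phosphate from serine and threonine, and most of their catalytic subunits work in complexes with scaffold or regulatory subunits that choose substrates. MAP kinases are the last step of a relay in which a MAP4K or another signal activates a MAP3K, the MAP3K phosphorylates a MAP2K, and the MAP2K phosphorylates the MAP kinase. PP2A and related phosphatases act on several of these kinases. RBFOX2 is a splicing regulator that binds UGCAUG in introns, and the same word also occurs in exons and 3′ UTRs. Mature mRNA, which was sequenced here, holds exons and UTRs.

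The measure of a gene was its number of edited Cs, which is the number of distinct C positions in the exons of its listed isoforms, on the gene's own strand, with any C-to-U edit in that library. Divided by the Cs of those exons it gives editsC, here as a percent. No read numbers accompany the edits, so depth is unknown and a gene with more reads can show more edited Cs. Fewer molecules of an mRNA and less editing of each molecule cannot be told apart in these counts.

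Exonic UGCAUG sites with more edits in the antibody libraries are shown first, as examples of the sequence around the motif. Each 30-nt window below is from hg38, on the strand of the gene and in DNA letters, and the capitals mark TGCATG, which reads UGCAUG in RNA. The windows were chosen by their edits: each had at least 2 edited Cs within 50 nt in both RBFOX2-INSCRIBE libraries and more than in each of the 4 control libraries. PPP4R3B is added as the paralogue of PPP4R3A.

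PPP2CA, 3′ UTR, chr5:134197552-134197581, minus strand: gaaccagttcatTGCATGctgaagcgacat

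PPP2CA, coding sequence, chr5:134206044-134206073, minus strand: tctgtggagatgTGCATGggcaatttcatg

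PPP1R2, 3′ UTR, chr3:195515721-195515750, minus strand: gagggttttcttTGCATGagaattgtatgt

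PPP3CB, 3′ UTR, chr10:73437395-73437424, minus strand: gtattttgtgtaTGCATGttttcattttgc

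PPP3CB, 3′ UTR, chr10:73437112-73437141, minus strand: aaaagtcaagacTGCATGttgaaacctttc

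PPP4R3A, coding sequence, chr14:91473072-91473101, minus strand: acaagcactgtaTGCATGttctcactgctc

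PPP4R3B, coding sequence, chr2:55579718-55579747, minus strand: acaaccattgtaTGCATGttctcacagcac

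PPP2R1A, coding sequence, chr19:52220213-52220242, plus strand: cttaactccttgTGCATGgcctggcttgtg

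MAP3K7, 3′ UTR, chr6:90516210-90516239, minus strand: tgtggctgtataTGCATGctcattgtgtga

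MAP2K1, 3′ UTR, chr15:66491048-66491077, plus strand: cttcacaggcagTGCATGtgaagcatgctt

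Over all protein-coding genes the RBFOX2-INSCRIBE libraries held 198111 and 203010 edited Cs and the buffer-only libraries 71534 and 70224. The enzyme-only libraries stood far apart from each other, with 84929 edited Cs in replicate 2 and 151512 in replicate 3. This gap between the enzyme-only libraries touches every comparison with them, and the results below give both libraries.

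In sum, PPP genes held more edited Cs in both libraries with the RBFOX2 antibody than in any library without it. Catalytic subunits such as PPP2CA and PPP1CB had this order, and PPP1CA and PPP4C did not. Summed over the family, the RBFOX2-INSCRIBE libraries held 1301 and 1411 edited Cs, the enzyme-only libraries 551 and 1035, and the buffer-only libraries 416 and 424. The mean was 1.71 times that of enzyme-only and 3.23 times that of buffer-only, with no overlap between groups. An exact permutation test of 2 libraries against 2 cannot give a two-sided p under 0.33, which was the value for both differences. As a share of all edited Cs the family held 0.657% and 0.695% with the antibody, 0.649% and 0.683% in enzyme-only, and 0.582% and 0.604% in buffer-only, so that the shares with and without antibody overlapped.

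Against enzyme-only, 29 PPP genes averaged 5 edited Cs or more over the 4 libraries and were tested with limma. No PPP gene passed an adjusted p of 0.05, beside 0.54% called higher and 0.0% called lower of 5003 protein-coding genes. At an unadjusted p under 0.05 there were 6 PPP genes, beside 18.4% of all genes tested. In 18 of the 29, both RBFOX2-INSCRIBE libraries were above both enzyme-only libraries, beside 51.9% of all genes, and in 1 both were below, beside 3.58%. The median log2 difference of the tested PPP genes was 1.02, against 0.85 over all genes. With an enzyme-only library left out, the lone one was assumed to vary like the antibody libraries, so that these calls do not include the gap between the enzyme-only libraries. Without enzyme-only replicate 3, 17 of 30 PPP genes passed, beside 47.6% of all genes, and the median was 1.58, against 1.30. Without enzyme-only replicate 2, 2 of 32 passed, beside 5.08%, and the median was 0.28, below the 0.35 of all genes.

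Against buffer-only, 19 of 29 tested PPP genes were higher with the antibody and 0 lower, beside 64.1% higher and 0.0846% lower of 4727 genes. In 26 of the 29 the groups did not overlap, beside 80.8%, and 23 had an unadjusted p under 0.05, beside 68.0%. The median log2 difference was 1.58 in PPP genes and 1.54 over all genes. With either RBFOX2-INSCRIBE library left out, 0 PPP genes passed. After scaling every library to the same total the median was 0.16 and 7 PPP genes passed. For these settings the values over all genes are not given, so they do not set the family apart.

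**Figure D1:**
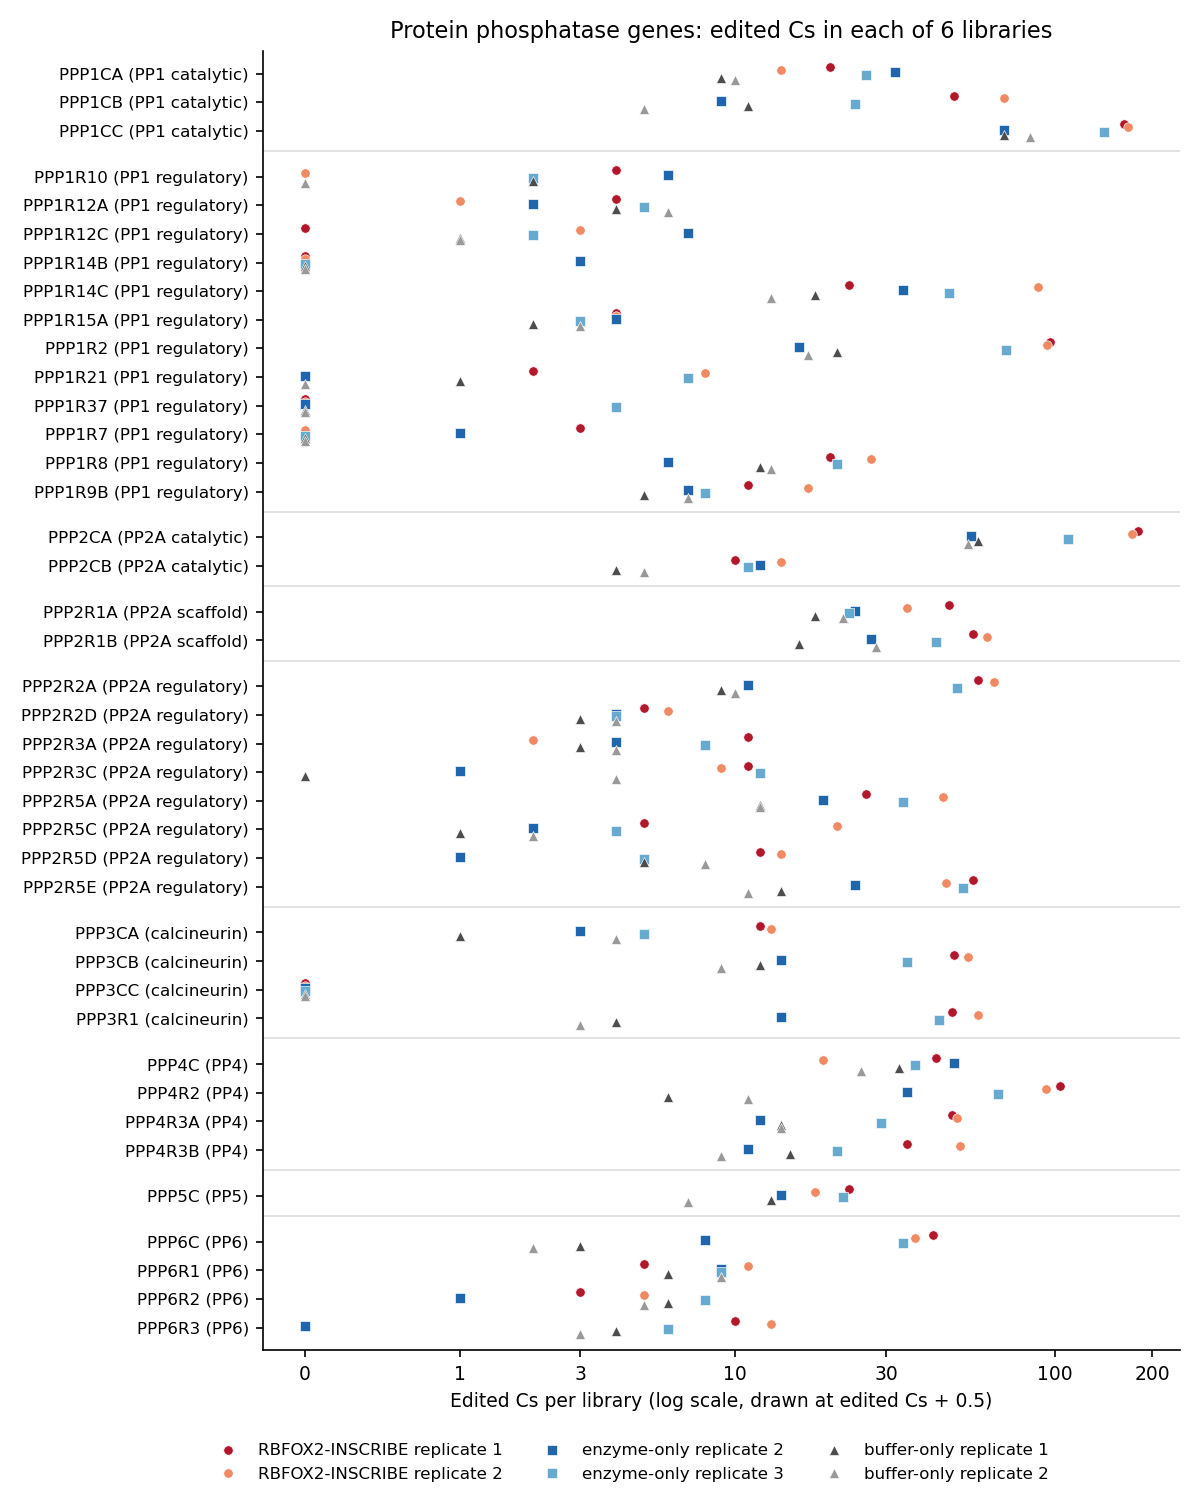
Edited Cs of each PPP gene (rows, grouped by complex) in each of the 6 libraries, on a log axis drawn at edited Cs + 0.5. Both RBFOX2-INSCRIBE libraries (circles) lie to the right of all 4 control libraries in genes such as PPP2CA, PPP1CB and PPP4R2, whereas in PPP1CA and PPP4C they do not.

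The 3 catalytic subunits of PP1, which share most of their protein sequence, had unlike edits. PPP1CB had 49 and 70 edited Cs with the antibody, 9 and 24 in enzyme-only, and 11 and 5 in buffer-only. Both antibody libraries were above all 4 controls, with a log2 difference of 1.95 ± 0.64 (SE) from enzyme-only that missed the threshold (limma, adjusted p = 0.101) and one of 2.89 ± 0.41 from buffer-only that passed (adjusted p = 1.13e-06). The first difference was 1.27 with enzyme-only replicate 2 left out and 2.64 with enzyme-only replicate 3 left out. PPP1CC had 164 and 168 edited Cs with the antibody, 70 and 142 in enzyme-only, and 70 and 84 in buffer-only. Its difference from enzyme-only was 0.73 ± 0.62 (adjusted p = 0.466) and from buffer-only 1.11 ± 0.15 (adjusted p = 8.32e-07).

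PPP1CC had the highest editsC of either family, a measure that counts a C however few of its reads were edited. Its editsC was 34.8% and 35.7% with the antibody, 14.9% and 30.1% in enzyme-only, and 14.9% and 17.8% in buffer-only, so that buffer-only values of PPP1CC exceeded the RBFOX2-INSCRIBE values of most other members. It holds no UGCAUG in the exons counted. At its sites found in both RBFOX2-INSCRIBE libraries and in no control, edit fractions (the edited share of reads) ran from 0.047% to 0.47%. Over such sites of all PPP genes, the median of the mean fraction was 0.57%.

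PPP1CA ran the other way. It had 20 and 14 edited Cs with the antibody, 32 and 26 in enzyme-only, and 9 and 10 in buffer-only. It was the only tested PPP gene with both antibody libraries below both enzyme-only libraries, with a log2 difference of −0.77 ± 0.67 that did not pass (adjusted p = 0.476).

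Regulatory subunits of PP1 were mostly at low counts, and 4 of 12 were tested against enzyme-only. PPP1R2, an inhibitor of PP1, had 97 and 95 edited Cs with the antibody, 16 and 71 in enzyme-only, and 21 and 17 in buffer-only. Its antibody libraries were above all controls, with a log2 difference of 1.49 ± 0.62 from enzyme-only (adjusted p = 0.195) and 2.31 ± 0.26 from buffer-only (adjusted p = 3.2e-08). PPP1R14C, another inhibitor, had 23 and 89 edited Cs with the antibody, 34 and 47 in enzyme-only, and 18 and 13 in buffer-only, so that its antibody libraries lay on both sides of enzyme-only and above buffer-only. PPP1R12A, the myosin-targeting subunit, had 1 to 6 edited Cs in every library and was not tested.

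In PP2A, the catalytic subunit PPP2CA had a higher editsC than its near-identical partner PPP2CB, in a measure that can also rise with reads. The editsC of PPP2CA was 21.6% and 20.6% with the antibody, 6.56% and 13.1% in enzyme-only, and 6.91% and 6.44% in buffer-only, and that of PPP2CB was 2.39% and 3.34%, then 2.86% and 2.63%, then 0.955% and 1.19%. PPP2CA had 181 and 173 edited Cs with the antibody, 55 and 110 in enzyme-only, and 58 and 54 in buffer-only. The antibody libraries were above all controls, by a log2 difference of 1.18 ± 0.62 from enzyme-only (adjusted p = 0.282) and 1.65 ± 0.16 from buffer-only (adjusted p = 4.21e-09). PPP2CB had 10 and 14 edited Cs with the antibody, 12 and 11 in enzyme-only, and 4 and 5 in buffer-only, and its difference from enzyme-only was 0.04 ± 0.75 (adjusted p = 0.977). The paralogues' reads were assigned to isoforms only where the assignment was unique.

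The scaffold subunits of PP2A had similar values. PPP2R1A had 47 and 35 edited Cs with the antibody, 24 and 23 in enzyme-only, and 18 and 22 in buffer-only, and PPP2R1B had 56 and 62, then 27 and 43, then 16 and 28. In both genes the antibody libraries were above all controls. Of all genes, 51.9% lay above both enzyme-only libraries and 80.8% above both buffer-only libraries. Both log2 differences from enzyme-only were 0.78, with SE of 0.64 and 0.62, and missed the threshold (adjusted p = 0.452 and 0.443), and both genes were higher than in buffer-only (adjusted p = 0.00857 and 0.000167).

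Among the 8 regulatory subunits of PP2A, 4 of 7 tested were higher than in buffer-only, beside 64.1% of all genes, and 0 of 7 passed against enzyme-only. PPP2R5D had 12 and 14 edited Cs with the antibody, 1 and 5 in enzyme-only, and 5 and 8 in buffer-only. PPP2R5C had 5 and 21, then 2 and 4, then 1 and 2, so that the lower antibody library lay 1 edited C above the highest control. Their log2 differences from enzyme-only were 2.23 ± 1.10 (adjusted p = 0.256) and 1.70 ± 1.13 (adjusted p = 0.373). PPP2R2A, a B subunit, had 58 and 65 edited Cs with the antibody, 11 and 50 in enzyme-only, and 9 and 10 in buffer-only.

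All 3 tested calcineurin genes had both antibody libraries above all controls. Of all genes, 51.9% lay above both enzyme-only libraries, 80.8% above both buffer-only libraries, and 64.1% were called higher than buffer-only. PPP3CB, a catalytic subunit, had 49 and 54 edited Cs with the antibody, 14 and 35 in enzyme-only, and 12 and 9 in buffer-only. PPP3CA, another catalytic subunit, had 12 and 13, then 3 and 5, then 1 and 4. PPP3R1, the calcium-binding subunit, had 48 and 58, then 14 and 44, then 4 and 3. Against enzyme-only the log2 differences were 1.19 ± 0.63 for PPP3CB, 1.57 ± 0.91 for PPP3CA and 1.07 ± 0.63 for PPP3R1, none of which passed (adjusted p = 0.288, 0.319 and 0.325), and all 3 were higher than in buffer-only (adjusted p = 6.57e-06, 0.0151 and 1.91e-07). PPP3CC had 0 edited Cs on its own strand in all 6 libraries and was listed only through the opposite strand.

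In PP4 the catalytic and regulatory subunits differed. PPP4C, the catalytic subunit, had 43 and 19 edited Cs with the antibody, 49 and 37 in enzyme-only, and 33 and 25 in buffer-only. These libraries overlapped, and its log2 difference was −0.56 ± 0.63 from enzyme-only (adjusted p = 0.579) and −0.01 ± 0.36 from buffer-only (adjusted p = 0.991). PPP4R2 had 104 and 94 edited Cs with the antibody, 35 and 67 in enzyme-only, and 6 and 11 in buffer-only. PPP4R3A had 48 and 50, then 12 and 29, then 14 and 14, and PPP4R3B had 35 and 51, then 11 and 21, then 15 and 9. All 3 regulatory subunits were above all controls in both antibody libraries. Of all genes, 51.9% lay above both enzyme-only libraries and 80.8% above both buffer-only libraries. The log2 differences of the 3 from enzyme-only were 1.02 ± 0.62, 1.37 ± 0.64 and 1.44 ± 0.65, none past the threshold (limma, adjusted p = 0.336, 0.236 and 0.222). Against buffer-only all 3 passed (limma, adjusted p = 3.07e-09, 5.28e-05 and 0.000209), beside 64.1% of all genes.

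PPP5C, which acts as a single chain, had 23 and 18 edited Cs with the antibody, 14 and 22 in enzyme-only, and 13 and 7 in buffer-only, with overlap between antibody and enzyme-only. PPP6C, the catalytic subunit of PP6, had 42 and 37, then 8 and 34, then 3 and 2. Its difference was 1.22 ± 0.65 from enzyme-only (adjusted p = 0.288) and 3.75 ± 0.53 from buffer-only (adjusted p = 1.27e-06). PPP6R3 had 10 and 13 edited Cs with the antibody, 0 and 6 in enzyme-only, and 4 and 3 in buffer-only. Its fitted log2 difference of 2.72 ± 1.55 from enzyme-only, the largest among tested PPP genes, was not past the threshold (adjusted p = 0.314) and depends on the 0.5 added to a count of 0.

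**Figure D2:**
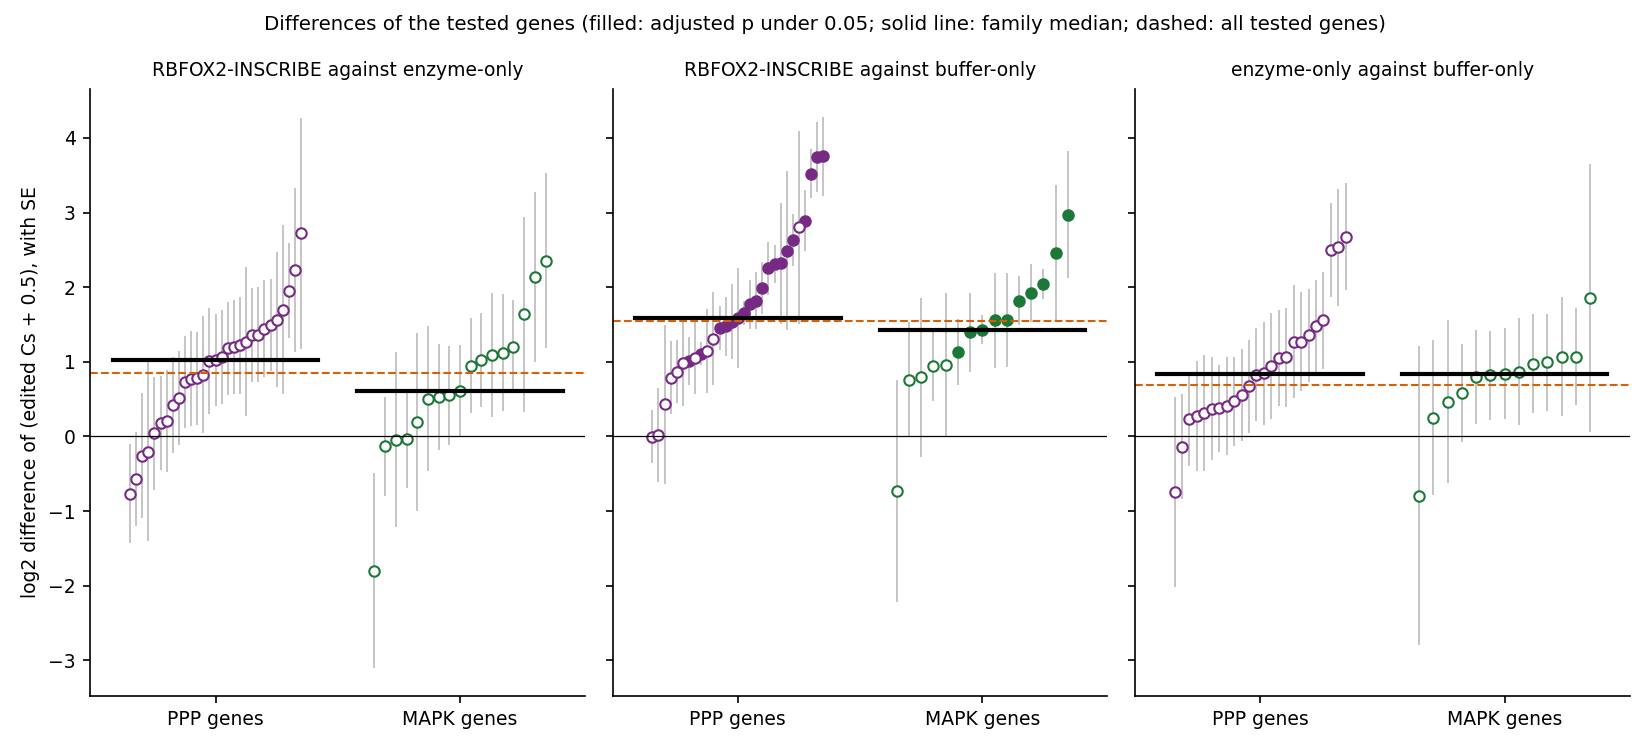
Log2 differences of edited Cs + 0.5 with their SE for each tested member, in order of size, for the 3 comparisons between groups. Filled points passed an adjusted p of 0.05, solid lines are family medians and dashed lines the median over all tested genes. No member passed between RBFOX2-INSCRIBE and enzyme-only or between enzyme-only and buffer-only, whereas 19 PPP and 10 MAPK genes passed between RBFOX2-INSCRIBE and buffer-only.

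PPP genes also held more edited Cs in sum in enzyme-only than in buffer-only, but no single gene passed. Of 24 PPP genes tested between enzyme-only and buffer-only, 0 were called in either direction by limma, beside 0.0241% higher and 0.0% lower of 4151 genes. At an unadjusted p under 0.05 there were 6, beside 13.7%. In 13 the enzyme-only libraries were both above buffer-only and in 0 both below, beside 44.5% and 1.3%, and the median log2 difference was 0.83, against 0.69 over all genes. PPP3R1 and PPP4R2 came nearest, with differences of 2.68 ± 0.72 and 2.50 ± 0.63 (adjusted p = 0.0962 for each). Without enzyme-only replicate 3 the median was 0.31, as over all genes (0.31). The comparisons share libraries and are therefore not independent of each other.

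In sum, MAPK genes held more edited Cs with the antibody than in buffer-only, but not more than in both enzyme-only libraries. MAP2K1 and MAP3K7 stood above all controls, whereas MAPK8 and MAPK14 overlapped enzyme-only replicate 3. Summed over the family, the RBFOX2-INSCRIBE libraries held 495 and 666 edited Cs, the enzyme-only libraries 219 and 530, and the buffer-only libraries 186 and 203. The antibody libraries were above buffer-only, by 2.98 times, but overlapped enzyme-only, where the ratio of means was 1.55 (exact permutation test, two-sided p = 0.667). Of all edited Cs the family held 0.25% and 0.328% with the antibody, 0.258% and 0.35% in enzyme-only, and 0.26% and 0.289% in buffer-only, and these shares overlapped between all groups.

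Against enzyme-only, 0 of 17 tested MAPK genes passed in either direction, with 1 at an unadjusted p under 0.05. In 5 of the 17 both antibody libraries were above both enzyme-only libraries, and the median log2 difference was 0.61. Over all genes the same values were 0.54%, 18.4%, 51.9% and 0.85. Leaving out enzyme-only replicate 3 gave 8 called MAPK genes of 17, beside 47.6% of all genes, and a median of 1.62, above the 1.30 of all genes. Leaving out enzyme-only replicate 2 gave 0 of 17, beside 5.08%, and a median of −0.07, below 0.35. These counts rest on the spread of the antibody libraries alone. Scaling all libraries to the same total gave a median of −0.21, against 0.048 over all genes.

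Against buffer-only, 10 of 15 tested MAPK genes were higher with the antibody and 0 lower, beside 64.1% and 0.0846% of all genes. The median log2 difference was 1.43, against 1.54 over all genes. After scaling to the same total, 0 MAPK genes passed and the median was −0.04, and with either RBFOX2-INSCRIBE library left out 0 passed. For these settings the values over all genes are not given, so they do not set the family apart. Between enzyme-only and buffer-only, limma called 0 of 13 tested MAPK genes, beside 0.0241% of all genes. An unadjusted p under 0.05 was found for 0, beside 13.7%. The median log2 difference there was 0.84, against 0.69 over all genes. Without enzyme-only replicate 3 it was 0.20, against 0.31.

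**Figure D3:**
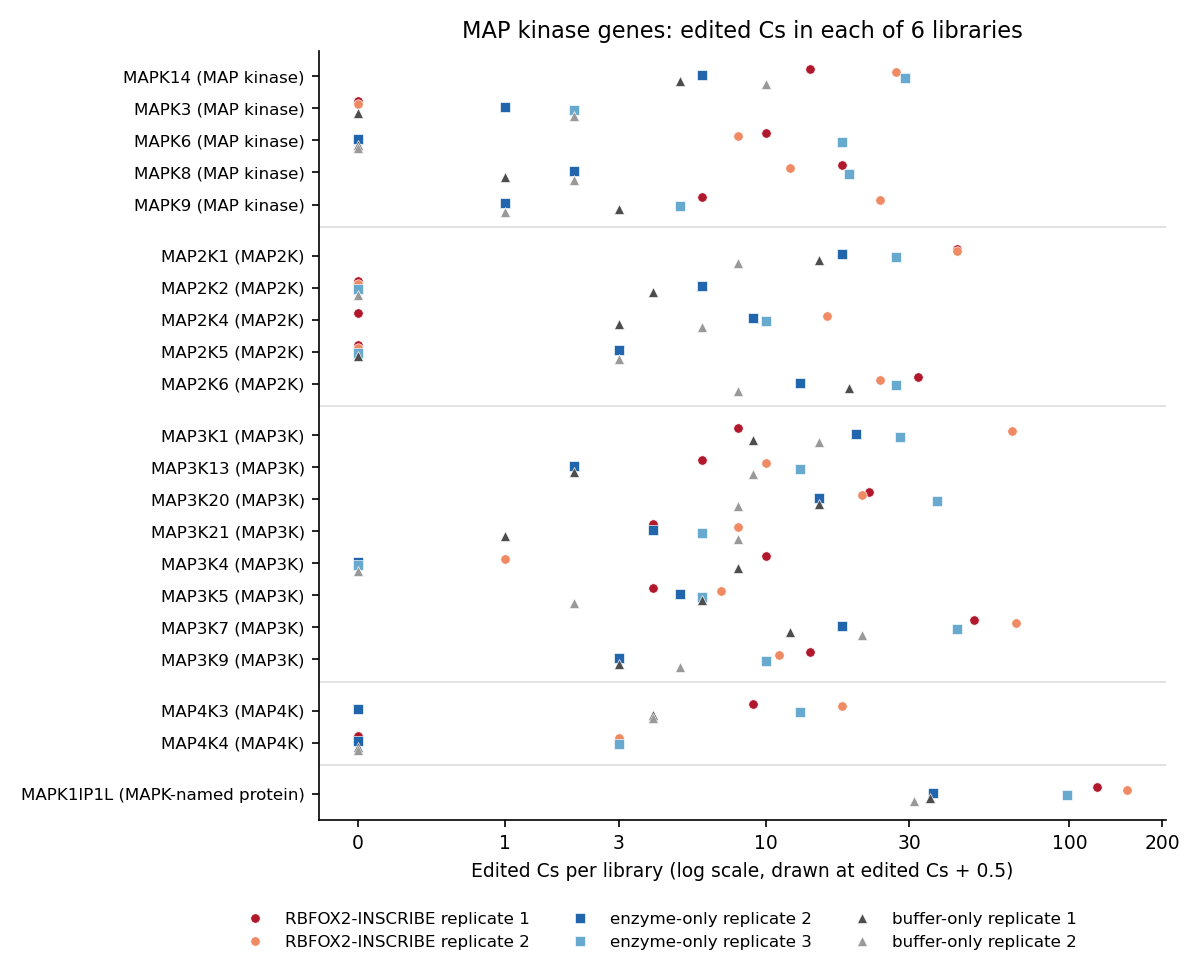
Edited Cs of MAPK genes (rows, grouped by tier of the cascade) in each of the 6 libraries, on a log axis drawn at edited Cs + 0.5. Of the genes drawn MAPK1IP1L holds the most edited Cs, and in many genes enzyme-only replicate 3 (light squares) lies among the RBFOX2-INSCRIBE libraries (circles) while enzyme-only replicate 2 (dark squares) lies near buffer-only (triangles).

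Among MAP kinases, MAPK3 was edited at almost no site. It had 0 edited Cs in both RBFOX2-INSCRIBE libraries and 0 to 2 in the controls. The stress kinases held enough edited Cs to be tested against both controls. MAPK8 (JNK1) had 18 and 12 edited Cs with the antibody, 2 and 19 in enzyme-only, and 1 and 2 in buffer-only. MAPK9 (JNK2) had 6 and 24, then 1 and 5, then 3 and 1, and was the only tested MAP kinase with both antibody libraries above all controls, though the lower of them did so by 1 edited C (log2 difference from enzyme-only 2.14 ± 1.14, adjusted p = 0.288). MAPK14 (p38 alpha) had 14 and 27, then 6 and 29, then 5 and 10. MAPK8, MAPK9 and MAPK14 were each higher than in buffer-only (adjusted p = 0.00395, 0.0213 and 0.0249).

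Among MAP2K genes, MAP2K1 (MEK1) differed most clearly. It had 43 edited Cs in each RBFOX2-INSCRIBE library, 18 and 27 in enzyme-only, and 15 and 8 in buffer-only, with no overlap. The log2 difference was 0.95 ± 0.64 from enzyme-only (adjusted p = 0.375) and 1.92 ± 0.38 from buffer-only (adjusted p = 0.000121). MAP2K2 (MEK2), its near relative, had 0 in both RBFOX2-INSCRIBE libraries, 6 and 0 in enzyme-only, and 4 and 0 in buffer-only. MAP2K6, which activates p38, had 32 and 24, then 13 and 27, then 19 and 8.

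MAP2K4 and MAP2K5 show how unequal libraries of the same group could be. MAP2K4, which activates JNK and p38, had 0 and 16 edited Cs with the antibody, 9 and 10 in enzyme-only, and 3 and 6 in buffer-only, which gave the lowest log2 difference of the tested members (−1.80 ± 1.31, adjusted p = 0.406). Without RBFOX2-INSCRIBE replicate 1 it was 0.72. MAP2K5 had 0 in both RBFOX2-INSCRIBE libraries and 3 in 1 library of each control group.

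Of the MAP3K genes, MAP3K7 (TAK1), which relays inflammatory signals, had 49 and 67 edited Cs with the antibody, 18 and 43 in enzyme-only, and 12 and 21 in buffer-only. Both antibody libraries were above all controls, with a log2 difference of 1.03 ± 0.63 from enzyme-only (adjusted p = 0.336) and 1.82 ± 0.33 from buffer-only (adjusted p = 3.46e-05). MAP3K9 had 14 and 11, then 3 and 10, then 3 and 5, and also lay above all controls. MAP3K20 had 22 and 21, then 15 and 37, then 15 and 8, and MAP3K1 had 8 and 65, then 20 and 28, then 9 and 15. In the last gene the antibody libraries lay below and above all 4 controls.

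MAPK1IP1L, the member that is not a kinase, had 123 and 154 edited Cs with the antibody, 36 and 98 in enzyme-only, and 35 and 31 in buffer-only. Its libraries did not overlap, with a log2 difference of 1.20 ± 0.62 from enzyme-only (adjusted p = 0.274) and 2.05 ± 0.20 from buffer-only (adjusted p = 5.73e-09). Of the MAP4K genes, MAP4K3 had 9 and 18, then 0 and 13, then 4 and 4, and was the MAPK gene with an unadjusted p under 0.05 against enzyme-only (adjusted p = 0.261).

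Edited Cs of PPP genes lay near UGCAUG more often in the antibody libraries than in any control library. Of all exonic Cs of the family, 2.33% lay within 50 nt of UGCAUG, on either side. Of the edited Cs, 5.69% and 5.53% did in RBFOX2-INSCRIBE, or 2.45 and 2.38 times the share of all Cs. The ratio was 1.09 and 1.33 in enzyme-only and 1.24 and 2.23 in buffer-only, so both antibody libraries were above all 4 controls. The difference from enzyme-only was 1.20 and the smallest p that an exact permutation test of these libraries can give is 0.33, which was its value. Over all protein-coding genes the ratio was 1.79 and 1.82 with the antibody and between 0.96 and 1.06 in the controls.

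PPP2CA raised these ratios in all 6 libraries. Without it the PPP ratio was 1.95 and 1.98 with the antibody, 0.81 and 1.06 in enzyme-only, and 1.12 and 1.08 in buffer-only. The high value of buffer-only replicate 2 was thus not present without PPP2CA. With each gene's edited Cs set against its own Cs, the ratio over all PPP genes was 2.17 and 2.24 with the antibody, 1.24 and 1.28 in enzyme-only, and 1.28 and 2.35 in buffer-only, so that buffer-only replicate 2 was then above the antibody libraries.

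A larger share of MAPK genes than of all genes held UGCAUG. Of their exonic Cs, 2.37% lay within 50 nt of it, against 2.33% in PPP genes and 2.47% over all genes. The edited Cs of MAPK genes near UGCAUG did not separate the antibody from the enzyme-only libraries. UGCAUG was present in the listed exons of 17 of 22 MAPK genes (77.3%, 36 sites) and of 20 of 39 PPP genes with an edited C (51.3%, 40 sites), against 57.9% of all genes. In MAPK genes the ratio was 1.70 and 1.52 with the antibody, 2.12 and 1.11 in enzyme-only, and 1.13 and 1.04 in buffer-only. The antibody libraries thus overlapped enzyme-only (difference of means −0.004, exact permutation two-sided p = 1.0). The difference of means became 0.50 when enzyme-only replicate 2 was left out and −0.51 when enzyme-only replicate 3 was. Without MAP3K7 the ratio was 1.15 and 1.22 with the antibody. Few edited Cs stand behind these values, between 5 and 24 per library.

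**Figure D4:**
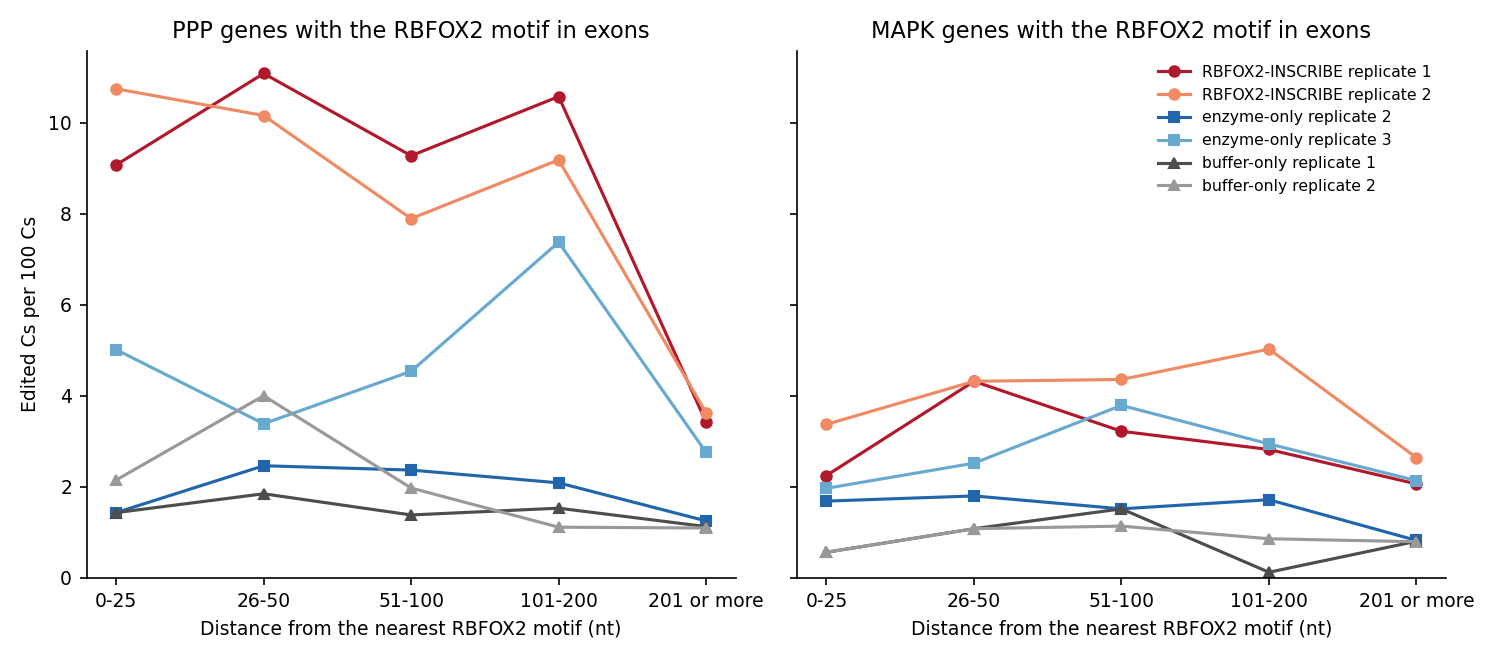
Edited Cs per 100 Cs by distance from the nearest UGCAUG in PPP genes (left) and MAPK genes (right) that hold the motif, with a line for each library. Genes are pooled, with PPP2CA included. In PPP genes the RBFOX2-INSCRIBE libraries stood at 9.07 and 10.7 within 25 nt and at 3.42 and 3.62 beyond 200 nt, whereas enzyme-only replicate 3 stood at 5.01 and 2.75.

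In PPP genes that hold UGCAUG, the density of edited Cs with the antibody stayed high out to 200 nt. Within 25 nt it was 9.07 and 10.7 per 100 Cs, between 101 and 200 nt it was 10.6 and 9.18, and beyond 200 nt it was 3.42 and 3.62. Enzyme-only replicate 3 had 5.01, 7.37 and 2.75 at the same distances and enzyme-only replicate 2 had 1.43, 2.09 and 1.25. These densities pool genes with many and with few edits. Within 50 nt the antibody libraries had 74 and 78 edited Cs of 744 Cs, and 49 and 55 of 700 without PPP2CA. Against each gene's own Cs, the ratio within 200 nt was 2.00 and 1.85 with the antibody. It was 1.31 and 1.48 in enzyme-only, and 1.21 and 1.62 in buffer-only. In MAPK genes the RBFOX2-INSCRIBE libraries had 2.25 and 3.37 within 25 nt, 4.32 in each between 26 and 50 nt, 2.82 and 5.02 between 101 and 200 nt, and 2.06 and 2.64 beyond 200 nt. Enzyme-only replicate 3 had 1.97, 2.52, 2.94 and 2.13 at these distances.

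Single UGCAUG sites differed widely in their edits. Of the 40 PPP sites, 32 had an edited C within 50 nt in at least 1 library, and 7 met the rule for the windows printed above. Of the 36 MAPK sites, 15 had an edited C and 3 met the rule, of which 2 are printed. Over all protein-coding genes 54.9% of 8653 sites had an edited C and 11.1% met the rule. In neither family was there a site at which both enzyme-only libraries, or both buffer-only libraries, exceeded all other libraries. The share of such sites over all genes is not given here.

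The 3′ UTR site of PPP2CA had the most edits, with 15 of the 25 Cs within 50 nt edited in each RBFOX2-INSCRIBE library, 3 and 5 in enzyme-only, and 2 and 6 in buffer-only. Its coding site had 10 and 8 of 19 Cs, against 2 and 5, and 1 and 7. The rule for the windows required the antibody libraries to be above all controls, and the coding site met it by 1 edited C. The coding UGCAUG site of PPP2CB had 0 edited Cs of 17 in 5 libraries and 1 in buffer-only replicate 2.

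PPP1R2 had 8 and 6 edited Cs of 11 at its site in RBFOX2-INSCRIBE, 0 and 2 in enzyme-only, and 0 in both buffer-only libraries. The first PPP3CB site had 5 and 3 of 12 and 0 in all 4 controls. The other PPP3CB site had 2 and 3 of 15, against 0 and 1, and 0 and 0. PPP3CB holds 6 UGCAUG sites in the exons counted, the most of any member.

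The paralogues PPP4R3A and PPP4R3B both hold UGCAUG in their coding sequences, with similar flanks in the windows above. PPP4R3A had 3 and 5 of 22 Cs edited there in RBFOX2-INSCRIBE, 0 and 1 in enzyme-only, and 2 and 1 in buffer-only. PPP4R3B had 0 and 1 of 20, then 0 and 2, then 0 and 0. The counts are small at both. PPP2R1A had 2 edited Cs in each antibody library, 0 in enzyme-only and 1 in each buffer-only library.

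In the MAPK family the 3′ UTR site of MAP3K7 had 5 and 6 of 21 Cs edited in RBFOX2-INSCRIBE, 3 and 3 in enzyme-only, and 1 and 1 in buffer-only. The MAP2K1 site had 5 and 4 of 21, then 2 and 0, then 2 and 0. Both sites have the antibody libraries above all controls because the rule for the windows required it.

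**Figure D5:**
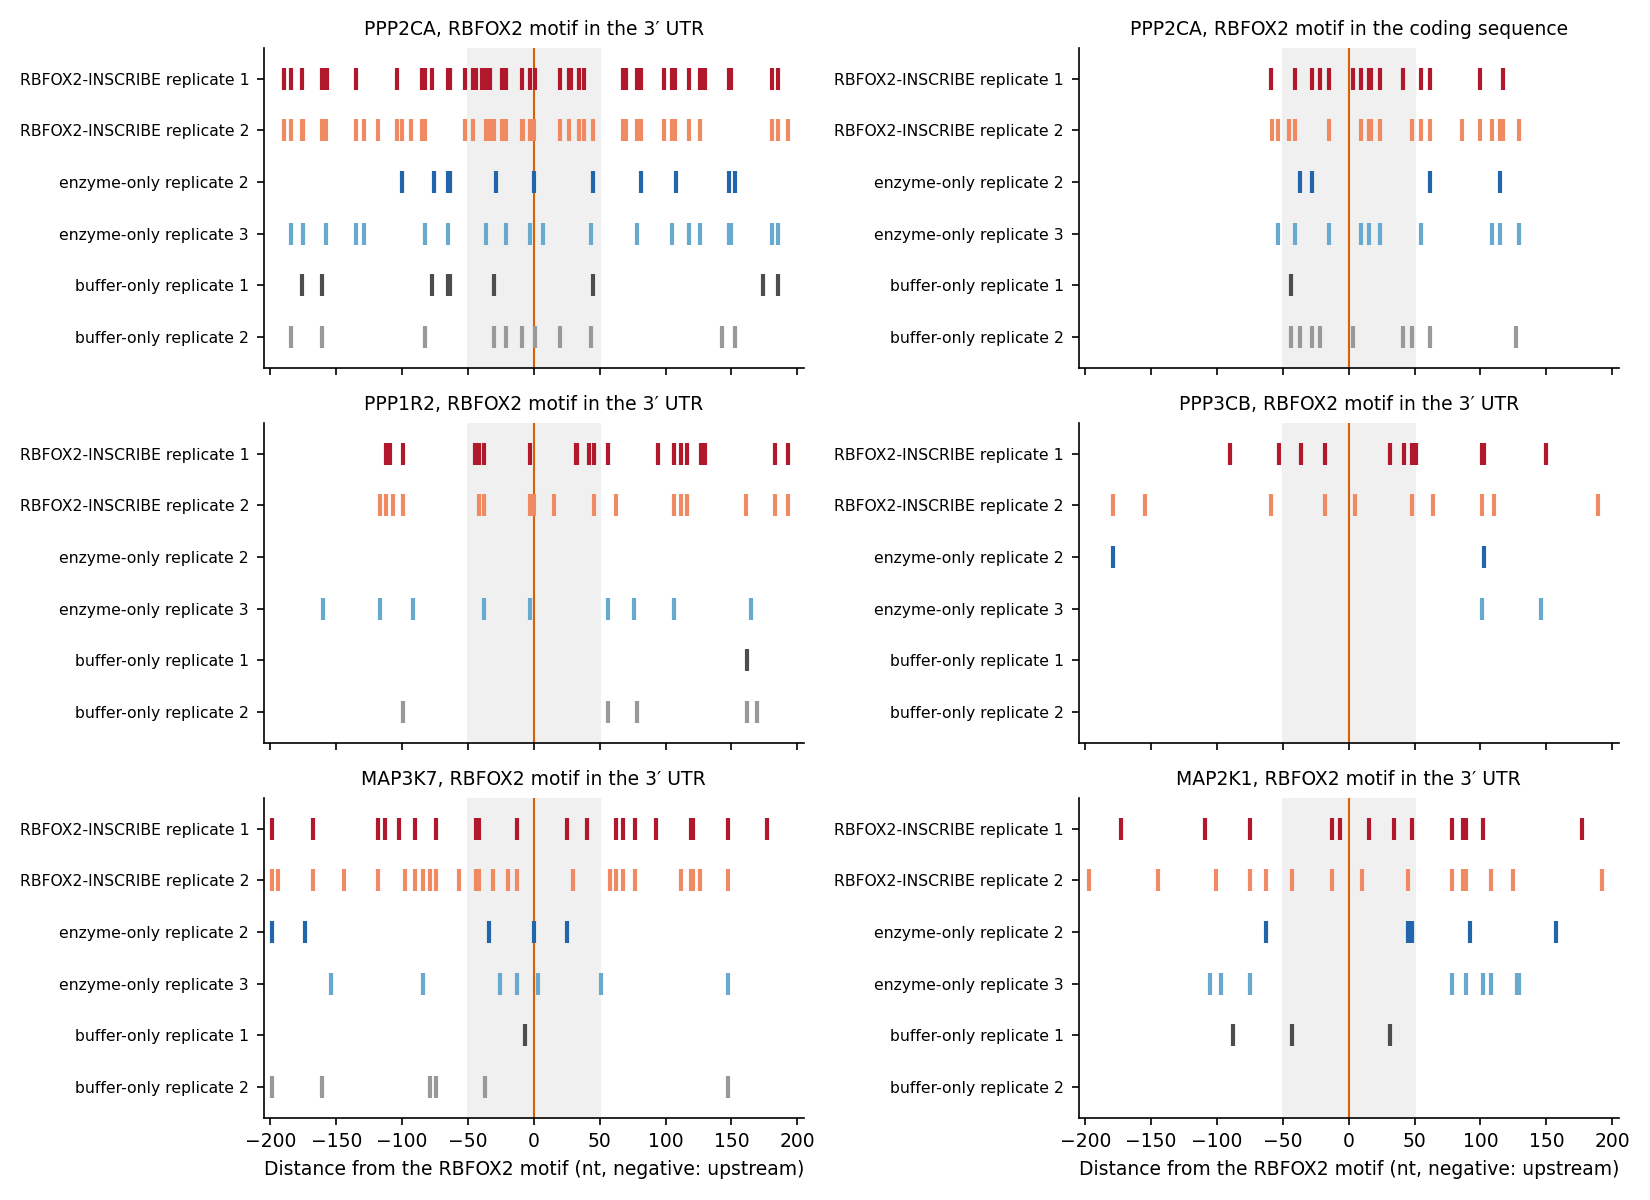
Positions of edited Cs within 200 nt of 6 of the UGCAUG sites printed above, with a row for each library and a tick for each edited C. The orange line is the motif, the grey band is 50 nt on either side and negative distances are upstream. Within the band at the PPP2CA 3′ UTR site the RBFOX2-INSCRIBE libraries have 15 ticks each and the controls 2 to 6, and at the PPP3CB site the controls have none.

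The share of edited Cs in 3′ UTRs was higher in MAPK than in PPP genes in every library. In PPP genes 60.6% and 57.8% of edited Cs were in 3′ UTRs in RBFOX2-INSCRIBE, 48.8% and 55.0% in enzyme-only, and 39.7% and 45.3% in buffer-only, where 41.4% of all their exonic Cs lie. In MAPK genes the shares were 80.8% and 80.3%, then 76.3% and 76.6%, then 64.5% and 68.5%, with 49.95% of Cs. Over all genes they were 60.2% and 61.3%, then 50.6% and 54.7%, then 44.6% and 44.2%, with 46.8% of Cs. In each set both RBFOX2-INSCRIBE libraries were above all controls.

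APOBEC1 favours a C that follows an A, and the base before the edited C differed between groups. In PPP genes 40.3% and 45.0% of edited Cs followed an A in RBFOX2-INSCRIBE, 34.7% and 40.2% in enzyme-only, and 18.0% and 23.3% in buffer-only, where 21.8% of all Cs do. In MAPK genes the shares were 43.2% and 43.5%, then 37.4% and 40.8%, then 25.3% and 21.7%, with 22.9% of Cs. Over all genes they were 40.2% and 41.1%, then 33.2% and 37.9%, then 19.0% and 19.6%, with 22.4% of Cs. In each set the libraries with the enzyme were above buffer-only, whose shares after A lay within a few percentage points of the share of all Cs. Buffer-only edits followed a G more often than all Cs did. In PPP genes 33.2% and 38.0% did so, with 25.1% of Cs, and in MAPK genes 33.9% and 35.0%, with 24.2% of Cs.

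Sites found in both RBFOX2-INSCRIBE libraries and in no control numbered 192 of the 3734 distinct edited Cs of PPP genes (5.14%) and 69 of the 1851 of MAPK genes (3.73%), against 4.35% over all genes. Sites in both enzyme-only libraries and no other numbered 33 and 9, beside 4545 of the 594256 distinct edited Cs of all genes. Sites in both buffer-only libraries and no other numbered 15 and 2, beside 2032 of those 594256. The groups differ in edited Cs per library, with the highest mean in RBFOX2-INSCRIBE, so these counts cannot be compared directly between groups. Of the 192, 138 lay in 3′ UTRs and 18 within 50 nt of UGCAUG. Of all edited Cs of PPP genes in RBFOX2-INSCRIBE, 60.6% and 57.8% lay in 3′ UTRs and 5.69% and 5.53% near UGCAUG. Of the 69, 65 lay in 3′ UTRs and 4 within 50 nt of UGCAUG. For all edited Cs of MAPK genes in RBFOX2-INSCRIBE these shares were 80.8% and 80.3%, and 4.04% and 3.60%. Over all genes, the shares for sites in both RBFOX2-INSCRIBE libraries and no control are not given here. PPP2CA held 35, PPP4R2 31, PPP1R2 25 and PPP1CC 19, and MAPK1IP1L held 25. PPP2CA had 7 of its sites near UGCAUG. PPP4R2 and PPP1CC hold no UGCAUG in the exons counted, so none of their sites could lie near it.

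At the level of isoforms, 49 isoforms of PPP genes and 32 of MAPK genes had an edited C. None of the 32 PPP and 19 MAPK isoforms tested against enzyme-only passed, beside 0.605% of 5623 called higher and 0.0% called lower. Unadjusted p was under 0.05 for 7 and 1, beside 18.5% of isoforms. PPP3CB had 4 isoforms. Its isoform ENST00000394828 had 8 edited Cs in each RBFOX2-INSCRIBE library and 0 in all 4 controls, and ENST00000342558 had 21 and 27, then 6 and 14, then 4 and 7. ENST00000360663 had 13 and 10, then 4 and 8, then 5 and 1, and ENST00000394829 had 10 and 12, then 4 and 13, then 3 and 1, so that in the last the antibody libraries overlapped enzyme-only. An isoform with 0 may have had no read assigned to it, which these files cannot show.

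PPP3CA split in a similar way. ENST00000394854 had 12 and 4 edited Cs with the antibody and 0 in the 4 controls, while ENST00000394853 had 0 and 9, then 3 and 5, then 1 and 4. MAP3K1 owed its unequal libraries largely to a retained-intron isoform, ENST00000469188, with 0 and 49 edited Cs with the antibody, 14 and 10 in enzyme-only, and 1 and 7 in buffer-only. PPP4R3B had edits in ENST00000616407, with 30 and 47, then 4 and 20, then 10 and 8, and in ENST00000616288, with 5 and 4, then 7 and 1, then 5 and 1. The first was tested (log2 difference from enzyme-only 1.99 ± 0.67, adjusted p = 0.109).

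Other genes around these pathways, from a list of 76 genes at the level of RAS and RAF, kinases below the MAP kinases, dual specificity phosphatases, partners of PP2A, PP1 and calcineurin, TAO kinases and metal-dependent phosphatases, were counted in the same way. Of these, 55 had an edited C. Against enzyme-only 0 of 41 tested passed, beside 0.54% of all genes, and the median log2 difference was 1.08, against 0.85. Against buffer-only 26 of 39 were higher and 0 lower, beside 64.1% and 0.0846%, with a median of 1.78, against 1.54. Between enzyme-only and buffer-only 0 of 34 passed, beside 0.0241%, with a median of 0.74, against 0.69.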

How the data were processed

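The deposited files, 1 per library for 6 libraries, list isoforms, edited positions and edit fractions (0 to 1). Per the study's methods, the authors sequenced each library on a PacBio SMRT Cell of its own, made and trimmed consensus reads (ccs, skera, lima, refine), aligned them to hg38 (pbmm2), filtered alignments by quality and strand, assigned them to isoforms (IsoQuant, unique assignments), found C-to-U changes with their own scripts, and removed edits shared by all samples and dbSNP positions. The annotation release of the long reads is not given in the sources used here, and GENCODE release 44 was used. The fractions come without read numbers, so depth and the error of a fraction are unknown, and no interval is given.

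Edits on the gene's strand within exons of its listed isoforms were counted once per library and gene. Groups were compared with limma 3.58.1 in R 4.3.3 (trend and robust empirical Bayes, Benjamini-Hochberg over all tested protein-coding genes) on log2(edited Cs + 0.5), for genes averaging 5 edited Cs or more over the libraries compared, with no covariates. Since 0.5 was added and logs were averaged over libraries, the log2 difference of a gene with few edited Cs can lie far from the log ratio of its group means in either direction. The fit was tested on simulated data with libraries of equal size, which did not hold the gap between the enzyme-only libraries. UGCAUG was searched on the gene's strand only, within 50 nt along the genome. Tables were made with Python 3.11.15, numpy 2.4.6 and pandas 2.3.3, and figures with matplotlib 3.10.9. Alternatives were other added values and filters, scaling, a minimum edit fraction, 1 fit over all libraries, a replicate block, both strands, other windows and leaving out each library.

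The members, roles and gene lists were chosen with earlier results of these data known. Named genes were the catalytic subunits, PP2A scaffolds and PPP1R12A, MAPK3, MAPK8, MAPK9, MAPK14 and MAP2K genes. Up to 6 tested genes per family with the largest difference from enzyme-only and no overlap, the 2 with the lowest difference, those with up to 6 UGCAUG sites by the rule in the text, and the 3 with the highest editsC in RBFOX2-INSCRIBE were added. Other members were named after their values were seen. A member gene and a UGCAUG site that these rules name are not reported here singly and stand only in the family's counts, medians and totals.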

Additional observations from a re-analysis of the deposited data

How the results depend on the processing

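The called counts and medians hold for the unscaled counts of edited Cs, and scaling, the edit-fraction minimum and single libraries moved them most. Edits come without read numbers, so that depth limits every count in an unknown way. Counts and medians given below without a value over all genes do not set a family apart. Where a value below moved, the cause was not tested, except that leaving out a library leaves fewer samples and, for scaling, that each library's total is divided out.

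Scaled to the same total per library, the median log2 difference between RBFOX2-INSCRIBE and enzyme-only was 0.22 in PPP and −0.21 in MAPK genes, against 0.048 over all genes. Between RBFOX2-INSCRIBE and buffer-only it was 0.16 and −0.040, with 7 and 0 called genes in place of 19 and 10. Between enzyme-only and buffer-only it was 0.18 in PPP genes. Scaling turned these single differences from enzyme-only: MAP2K6 to −0.25, MAPK14 to −0.26, PPP1CC to −0.086, PPP2CB to −0.74, PPP2R1A to −0.035, PPP2R1B to −0.031 and PPP5C to −0.59. From buffer-only it turned MAP2K6 to −0.33, MAP3K20 to −0.51, MAPK14 to −0.040, PPP1CA to −0.66, PPP1CC to −0.38, PPP2CB to −0.091, PPP2R1A to −0.47, PPP2R1B to −0.024, PPP2R5D to −0.44 and PPP5C to −0.40.

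With only edit fractions of at least 0.02, calls against buffer-only fell to 5 PPP and 3 MAPK genes, the PPP median was 2.12 against buffer-only and 1.32 between enzyme-only and buffer-only, the ratios of totals to buffer-only were 3.41 and 2.39, and MAPK14 was −0.093 from enzyme-only. With all 6 libraries in 1 fit, 5 MAPK genes were called against buffer-only and 3 PPP genes between enzyme-only and buffer-only. For genes averaging 10 edited Cs or more, 6 MAPK genes were called against buffer-only. This filter and the edit-fraction minimum also left fewer genes to test, so fewer calls need not mean smaller differences. Against enzyme-only, 22 PPP and 10 MAPK genes were tested with the filter and 9 and 11 with the minimum, in place of 29 and 17. With both strands counted, MAP3K20 was 0.064 from enzyme-only.

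The PPP difference in the UGCAUG ratio from enzyme-only (1.20) was 0.98 and 0.84 with windows of 100 and 200 nt, 1.66 with the edit-fraction minimum, 0.43 with GCAUG, 1.03 with only genes that hold UGCAUG and also 1.03 without PPP2CA, and 0.95 with each gene's own Cs. From buffer-only (0.68) it was 1.66 with the edit-fraction minimum, 0.28 with GCAUG and 0.39 with each gene's own Cs. With the edit-fraction minimum the ratios overlapped, at 2.10 and 4.08 with the antibody and 2.15 and 0.69 in buffer-only. These rest on 10 and 20 edited Cs near UGCAUG, against 3 and 1. The MAPK difference from enzyme-only was 0.19 with GCAUG. From buffer-only (0.53) it was 0.24 with 100 nt, 0.86 with the edit-fraction minimum, 0.020 with GCAUG, 0.34 without MAP3K7 and 0.35 with each gene's own Cs. The settings without PPP2CA or MAP3K7 and with each gene's own Cs were chosen after seeing the data.

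Leaving out 1 library at a time, where the lone library of a group was assumed to vary like the other group, calls against enzyme-only ranged from 0 to 17 in PPP genes, 0 to 8 in MAPK genes, 0 to 19 in PPP isoforms and 0 to 7 in MAPK isoforms, and calls against buffer-only from 0 to 19 and 0 to 8. Medians ranged from 0.28 to 1.58 (PPP) and −0.072 to 1.62 (MAPK) against enzyme-only, 1.47 to 1.78 and 1.34 to 1.82 against buffer-only, and 0.31 to 1.13 and 0.20 to 1.45 between the controls, where no gene of either family was called. Differences in the UGCAUG ratio ranged from 1.08 to 1.32 (PPP) and −0.51 to 0.50 (MAPK) from enzyme-only, and 0.18 to 1.17 and 0.43 to 0.62 from buffer-only. Ratios of totals ranged from 1.31 to 2.46 and 1.10 to 2.65, and from 3.10 to 3.36 and 2.54 to 3.42. Single differences from enzyme-only that turned ranged from −4.32 to 0.72 (MAP2K4), −0.77 to 0.50 (MAP3K20), −0.56 to 1.62 (MAPK14), −0.36 to 2.60 (MAPK8), −0.19 to 0.27 (PPP2CB), −1.14 to 0.014 (PPP4C) and −0.11 to 0.52 (PPP5C), and from buffer-only −1.18 to 1.79 (MAP2K4) and −0.58 to 0.57 (PPP4C).

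The titles number the enzyme-only libraries 2 and 3 and the labels' replicate field numbers them 1 and 2. The block used the field, which puts the library called enzyme-only replicate 2 here with replicate 1 of the other groups, and the other enzyme-only library with replicate 2. These numbers did not pair the libraries, since deviations of same-numbered libraries correlated at 0.11, 0.04 and −0.03. With the replicate number as a block, the calls stayed at 0 and 0, 19 and 10, and 0 and 0 in the 3 comparisons.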
